A study of Homo sapiens with 6 samples.

Results

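The 50 genes described here encode the machinery that licenses replication origins, opens the DNA helix and copies it at the fork. They were chosen by symbol for their role, with no measured value in the rule. Earlier results of these data were, however, known when they and the gene lists below were chosen. All 50 were found among the 24462 symbols of the count tables, KIAA0101 under that older name of PCLAF. All 50 also passed the filter on low counts that left 12739 genes for testing. H460 is a long-established line of human lung cancer cells. The series holds 3 libraries of H460 cells that spent 24 h without glutamine, in RPMI 1640 with dialyzed fetal bovine serum (depleted) and 3 libraries of glutamine-replete H460 cells (replete). The labels give RPMI 1640 with fetal bovine serum for growth, and leave unsaid whether the serum given to replete cells on that day was dialyzed. Cell line and library kit were shared by both groups, and the labels name no genetic change or drug in either.

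Before S phase, the origin recognition complex, CDC6 and CDT1 load the ring of MCM2 to MCM7 onto DNA, a step called licensing, which geminin (GMNN) blocks once S phase has begun. The CDC7 kinase with its activator DBF4 then allows CDC45 and the GINS complex to join the ring, and polymerases, the sliding clamp PCNA and its loader RFC copy the opened strands. Many of these genes are known to be transcribed under E2F control at the entry into S phase and to be low in cells that have left the cycle.

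Values are 3′-end tag counts, given as CPM (a gene's count scaled to a common library total), and log2 fold changes are depleted over replete after trimmed-mean (TMM) scaling, from edgeR's quasi-likelihood test with Benjamini-Hochberg adjusted p-values over all 12739 genes. A gene is said to have risen or fallen where that adjusted p was under 0.05. Library totals ran from 7550849 to 10914899 counts, so that 3 counts stood for 0.275 to 0.397 CPM, and this limit covers counting error only. Depleted replicate 2 stood apart: a chi-square comparison of its counts with those of the other depleted libraries gave 10.9 and 18.0 for each degree of freedom, against 1.496 to 3.71 in the other within-group pairs. The epithelial keratins KRT8, KRT18 and KRT19 were detected in every library, at 72.1 CPM or more, and KRT8 and KRT19 fell by 1.05 and 1.87 on the log2 scale. EPCAM, another epithelial marker, was at 0 to 0.505 CPM. Among the markers of other cell types described here, CDH5 had no count and CD3E, PECAM1, PTPRC and DCN stayed below 1 CPM. COL1A1 and COL1A2 reached 56.5 and 18.2 CPM in depleted replicate 3, against at most 13.4 and 3.31 CPM elsewhere, and their part in the results was not tested.  The labels do not say whether libraries came from separate cultures, so p-values reflect the scatter among the libraries at hand, part or all of which may be technical.

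Replication genes fell as a group after a day without glutamine. Of the 50 genes, 40 fell, none rose and 10 did not pass, against 39.4% of all tested genes lower and 39.1% higher. The median log2 fold change of the 50 was −1.33, beside −0.02 over all genes tested. More than 2-fold decreases were found for 29 members (23.7% of all genes tested), and 14 of these fell by more than 4-fold (9.55% of all genes tested). In 43 members every depleted library had a lower CPM than every replete library (47.8% of all genes tested), and in none was the reverse seen. Summed over the 50 genes, the level was 1120.1 to 1141 CPM in the depleted libraries and 3472 to 3592 CPM in the replete libraries. KIAA0101 alone made up 18.6 to 20.9 CPM of the depleted sums and 718 to 750.4 CPM of the replete sums. No member had an unadjusted p under 0.05 for an increase by edgeR, and DESeq2 and limma-voom each found 0 as well. With library totals in place of TMM factors, which shifted the median log2 fold change of all genes by −0.23, 43 members fell and 0 rose, and ORC2, ORC5, POLA2, RFC5 and RPA2, none of which passed, changed sign. Without depleted replicate 2, 41 members fell and 1, ORC2, rose; without depleted replicate 3, 40 fell and 0 rose. In RNA from whole cultures, fewer cells in S phase and less transcript per cell cannot be told apart.

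**Figure D1:**
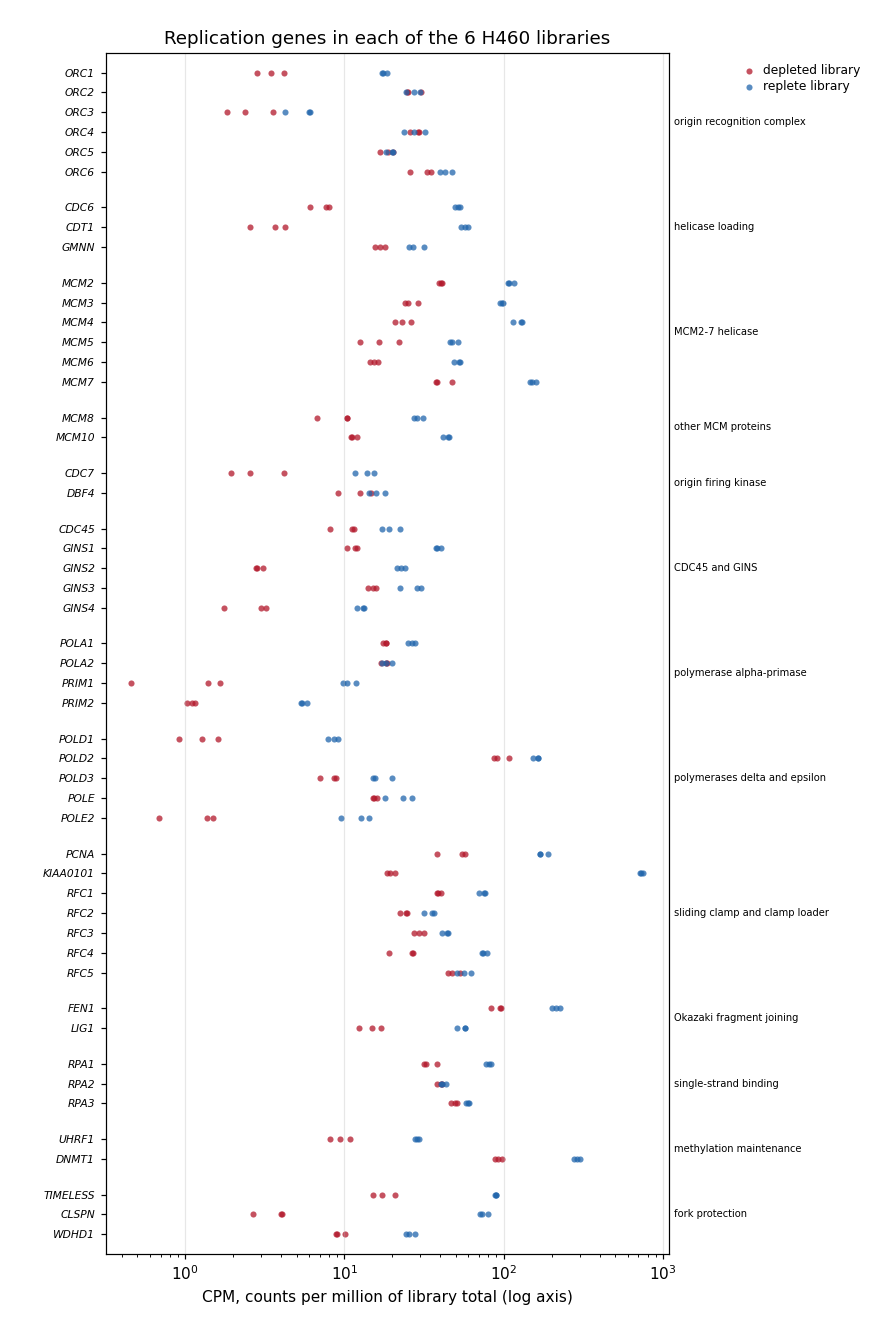
CPM (log axis) of each of the 50 replication genes in the 3 depleted and 3 replete libraries, 1 point per library, grouped by role. In 43 genes all depleted points lie to the left of all replete points, and KIAA0101 shows the widest gap.

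**Figure D2:**
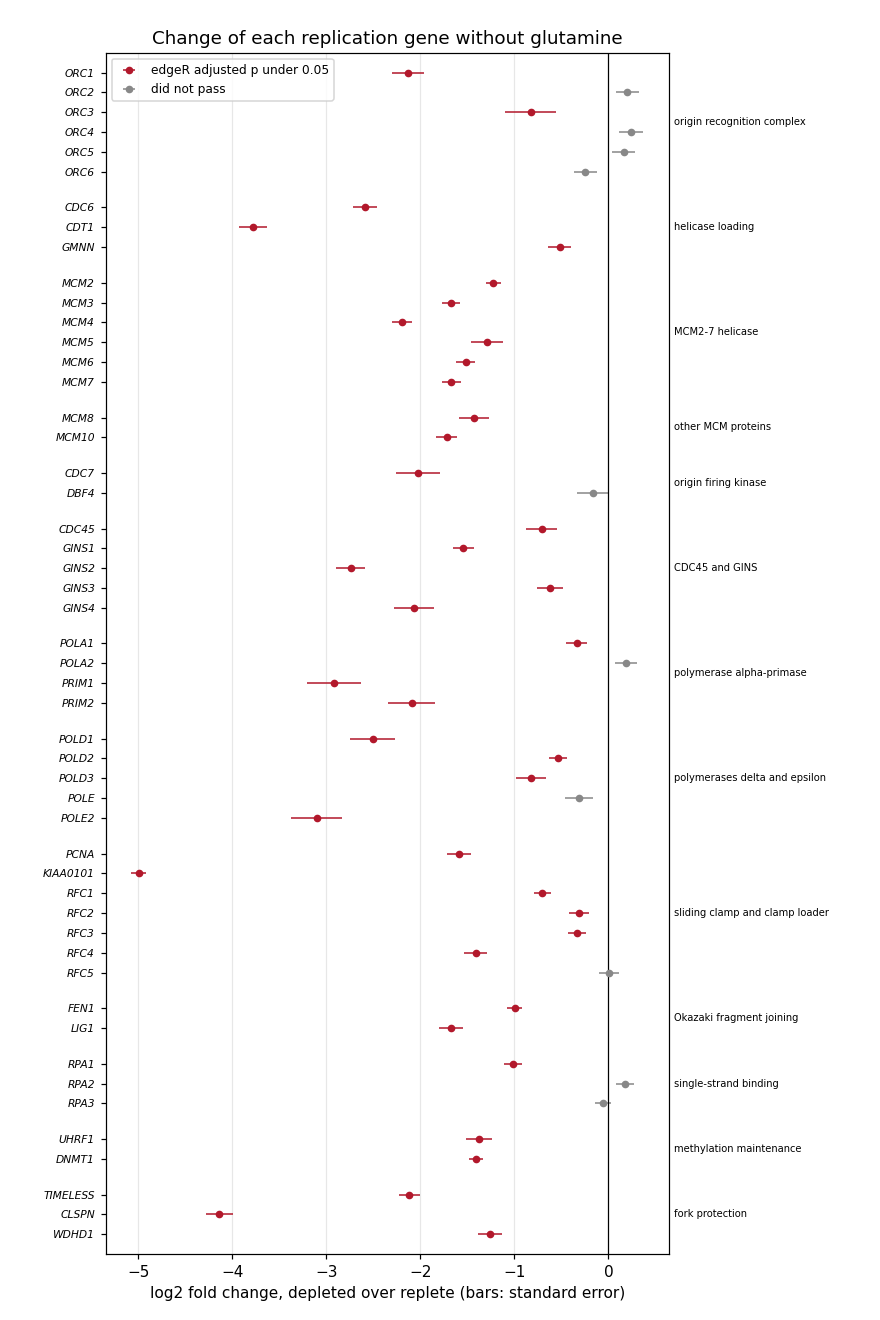
Log2 fold change (depleted over replete, TMM scaling) of the same genes with its standard error, coloured by whether the edgeR adjusted p was under 0.05. The 40 genes that fell range from KIAA0101 at −4.99 to RFC2 at −0.31, and the 10 others lie between −0.31 and 0.24.

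The promoters of the members were also read for the letters of the E2F site. The RefSeq promoter table (GRCh38.p14, 250 bases before to 50 after each gene's start) held 44 of the 50 genes. An exact match to TTTGGCGC, TTTCCCGC, TTTCGCGC or TTTGCCGC on either strand was present in 21 of these 44 (47.7%). The same letters were found in 549 of 10074 promoters of tested genes (5.45%) and in 3.33% of all 27305 promoters of the table. Among the other replication factors described below, 2 of 22 promoters (9.09%) held them. They were present in 19 of 36 members that fell and in 2 of 8 that did not pass, POLA2 and POLE. Among the members that fell by more than 4-fold, 5 of 12 promoters held a match. Across all tested genes the share was 5.77% for those that fell and 5.24% for those that did not. The CCAAT box, searched in the same way, was present in 24 of the 44 members (54.5%) and in 36.9% of tested genes. Among the other replication factors its share was higher still, at 14 of 22 (63.6%). The cell cycle homology element, TTTGAA, also searched on both strands, was present in 1 of 44, DBF4, and in 9.65% of tested genes. Such matches are descriptions of letters and not of binding. Other spellings were not searched, such as the tttggcgg left in small letters in the CDC6 and CDT1 stretches below. A promoter without a match therefore lacks only the spellings listed here.

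The promoter stretches below run from 80 bases before the start to 30 bases into the gene, 5′ to 3′ on the gene's own strand, with the E2F letters in capitals. They show 6 of the genes with a match, MCM2 as a helicase subunit and the 5 genes with both a match and a more than 4-fold decrease, and then KIAA0101, which had the steepest decrease of all and no match. In MCM2 a match on each strand overlaps, which gives 1 longer run of capitals.
CDC6 (chr17:40287799-40287908, plus strand): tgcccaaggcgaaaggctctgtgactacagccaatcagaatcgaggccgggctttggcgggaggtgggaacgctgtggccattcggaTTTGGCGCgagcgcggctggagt
CDT1 (chr16:88803709-88803818, plus strand): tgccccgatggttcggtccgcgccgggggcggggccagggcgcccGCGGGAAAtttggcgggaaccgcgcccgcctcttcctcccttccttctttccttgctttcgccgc
MCM2 (chr3:127598331-127598440, plus strand): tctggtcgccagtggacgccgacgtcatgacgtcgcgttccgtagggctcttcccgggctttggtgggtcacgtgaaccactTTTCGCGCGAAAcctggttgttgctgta
GINS2 (chr16:85688925-85689034, minus strand): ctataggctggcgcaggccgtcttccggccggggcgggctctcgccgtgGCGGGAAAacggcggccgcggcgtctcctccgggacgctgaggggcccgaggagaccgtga
POLE2 (chr14:49688185-49688294, minus strand): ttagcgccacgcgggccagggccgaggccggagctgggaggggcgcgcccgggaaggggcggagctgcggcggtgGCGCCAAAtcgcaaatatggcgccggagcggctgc
CLSPN (chr1:35769949-35770058, minus strand): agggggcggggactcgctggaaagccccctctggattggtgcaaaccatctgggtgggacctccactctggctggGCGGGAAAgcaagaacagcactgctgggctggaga
KIAA0101 (chr15:64387658-64387767, minus strand): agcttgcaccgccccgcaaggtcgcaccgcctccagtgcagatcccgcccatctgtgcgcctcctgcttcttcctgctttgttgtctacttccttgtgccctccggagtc

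Subunits of the origin recognition complex, which marks the sites where helicases are loaded, did not move alike. ORC1, an ATP-binding subunit whose level is known to follow the cell cycle, was at 2.84, 3.44 and 4.15 CPM in depleted replicates 1 to 3 and at 18.4, 17.4 and 17.2 CPM in replete replicates 1 to 3. All depleted libraries lay far below all replete ones, and ORC1 fell by 2.13 on the log2 scale (SE 0.17, edgeR adjusted p = 1.00e-07). ORC3, a core subunit, was at 2.38, 1.83 and 3.58 against 4.21, 6.06 and 5.96 CPM, in the same order of libraries, which is kept below. It fell by 0.83 (SE 0.27, edgeR adjusted p = 0.0135), but did not pass without replete replicate 2 (edgeR adjusted p = 0.0550, with 0.00303 to 0.127 over its alternatives).

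The core subunits ORC2, ORC4 and ORC5 overlapped between groups. ORC2 was at 30.1, 25.1 and 24.7 against 24.4, 29.8 and 27.3 CPM (log2 fold change 0.20, edgeR adjusted p = 0.144). ORC4 was at 28.9, 29.4 and 25.6 against 27.2, 32.2 and 23.6 CPM (0.24, adjusted p = 0.0975), and ORC5 at 18.7, 20.05 and 16.7 against 18.2, 19.8 and 20.1 CPM (0.16, adjusted p = 0.251). Higher calls appeared when 1 library was left out: ORC2 without depleted replicate 2 (edgeR adjusted p = 0.0403, 0.0403 to 1 over its alternatives) and ORC4 without replete replicate 2 (0.0378, 0.0378 to 1). ORC6, the subunit that binds the complex loosely in human cells, was at 34.8, 25.8 and 32.8 against 47.3, 39.9 and 42.5 CPM, with all depleted libraries lower. Its log2 fold change of −0.25 did not pass (edgeR adjusted p = 0.0755), though it did with library totals alone (−0.47, edgeR adjusted p = 0.00302), with genes of mean CPM of at least 10 only (−0.35, adjusted p = 0.0200) and without depleted replicate 1 (−0.33, adjusted p = 0.0308), within 0.00302 to 1 over its alternatives. Within libraries, the count ratio of ORC1 to ORC2 was 0.0945, 0.137 and 0.168 in depleted and 0.755, 0.585 and 0.631 in replete replicates, a pair chosen after the values were seen and therefore given without a test.

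The loading factors fell more steeply than their inhibitor. CDC6, the ATPase that joins the origin complex to the helicase, was at 7.70, 8.02 and 6.11 against 53.1, 51.5 and 49.4 CPM (edgeR log2 fold change −2.59, SE 0.13, adjusted p = 7.92e-10). CDT1, which carries the helicase to the origin, was at 4.21, 3.67 and 2.54 against 54.3, 56.7 and 59.2 CPM (−3.78, SE 0.15, adjusted p = 1.50e-10). GMNN, which binds CDT1 and blocks relicensing, was at 18.0, 16.6 and 15.6 against 31.5, 27.0 and 25.6 CPM (−0.52, SE 0.12, adjusted p = 0.00179). All 3 genes kept the groups apart, with the narrowest gap in GMNN. The count ratio of CDT1 to GMNN within a library, which needs no scaling, was 0.235, 0.221 and 0.163 in depleted and 1.73, 2.10 and 2.32 in replete libraries. The ratio was thus 9.98-fold lower in depleted cells, with a two-sided exact permutation p of 0.1 (n = 3 per group), the smallest that 3 against 3 can give.

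All 6 subunits of the MCM2 to MCM7 ring, the helicase motor, fell by more than 2-fold. MCM4 changed the most, at 23.0, 20.6 and 26.1 against 130.4, 115 and 128 CPM (edgeR log2 fold change −2.19, SE 0.10, adjusted p = 5.20e-10). MCM2 changed the least, at 40.5, 39.4 and 41.0 against 106, 108 and 117 CPM (−1.22, SE 0.08, adjusted p = 2.07e-08). The other 4 subunits lay between these. MCM3 was at 24.1, 28.98 and 25.2 against 98.9, 98.1 and 95.1 CPM (−1.68, adjusted p = 3.86e-09), and MCM7 at 37.6, 47.3 and 38.0 against 150.0, 159.9 and 147 CPM (−1.67, adjusted p = 6.79e-09). MCM6 was at 15.4, 16.2 and 14.5 against 52.7, 53.0 and 48.9 CPM (−1.52, adjusted p = 1.92e-08). MCM5 had the largest standard error of the log2 change in the ring, at 12.5, 22.1 and 16.4 against 51.7, 45.8 and 47.4 CPM (−1.29, SE 0.17, adjusted p = 2.61e-05), with its highest depleted value in replicate 2. Summed over the ring, depleted libraries held 153 to 175 CPM and replete libraries 579.7 to 589 CPM.

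Of the MCM proteins outside the ring, MCM10 and MCM8 fell to a similar extent, and MCM9 did not pass. MCM10, which helps to activate the loaded helicase, was at 11.9, 11.2 and 11.0 against 45.2, 41.7 and 44.8 CPM (edgeR log2 fold change −1.72, SE 0.11, adjusted p = 1.03e-08). MCM8, a helicase of recombination, was at 10.4, 6.76 and 10.4 against 28.7, 27.3 and 31.0 CPM (−1.43, SE 0.16, adjusted p = 2.27e-06). Neither MCM10 nor MCM8 overlapped between groups. MCM9, one of the other replication factors described below, was at 2.75, 1.37 and 2.08 against 2.66, 2.90 and 2.78 CPM. Its groups overlapped (edgeR log2 fold change −0.18, SE 0.29, adjusted p = 0.592), and it is named here after its values were seen.

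Of the kinase that fires licensed origins, the catalytic subunit fell and the activator did not pass. CDC7 was at 2.57, 1.95 and 4.15 against 15.4, 13.9 and 11.7 CPM (edgeR log2 fold change −2.02, SE 0.23, adjusted p = 3.29e-06). DBF4 was at 14.7, 9.16 and 12.6 against 15.8, 14.3 and 17.9 CPM, and the groups overlapped (−0.16, SE 0.17, adjusted p = 0.396). The count ratio of CDC7 to DBF4 was 0.175, 0.213 and 0.330 in depleted and 0.972, 0.973 and 0.652 in replete libraries, a 3.69-fold difference that was not tested because the pair was picked from its values.

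CDC45 and the 4 GINS subunits, which turn the ring into an active helicase, all fell. GINS2 led, at 2.84, 3.09 and 2.77 against 24.1, 21.5 and 22.6 CPM (edgeR log2 fold change −2.74, SE 0.16, adjusted p = 3.57e-09), and the depleted values were nearly equal. GINS3 changed the least, at 14.1, 15.1 and 15.8 against 28.6, 30.1 and 22.2 CPM (−0.62, SE 0.14, adjusted p = 0.000994). GINS4, GINS1 and CDC45 fell too, with log2 fold changes of −2.06, −1.54 and −0.71, CDC45 from a mean of 19.5 ± 2.58 to 10.3 ± 1.83 CPM (SD, n = 3). The 4 GINS subunits, which work as a single complex, thus ranged from −2.74 to −0.62.

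Polymerase alpha and primase, which lay down the first RNA-DNA primer, split by subunit. The primase subunits PRIM1 (catalytic) and PRIM2 (regulatory) fell, with log2 fold changes of −2.92 and −2.09. PRIM1 was at 1.65, 0.458 and 1.38 against 11.9, 9.72 and 10.3 CPM, where the lowest value stands for 4 counts in depleted replicate 2. POLA1, the polymerase itself, fell by 0.33 (edgeR adjusted p = 0.0144), but did not pass without replete replicate 3 (edgeR adjusted p = 0.0534) or with DESeq2 (adjusted p = 0.0613), within 0.000409 to 1 over its alternatives. POLA2, the accessory subunit, was at 18.6, 17.1 and 18.1 against 18.3, 19.8 and 17.2 CPM, with overlapping groups (0.19, edgeR adjusted p = 0.172).

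The polymerases of the leading and lagging strand showed wide contrasts within a complex. POLE2, the second subunit of polymerase epsilon, was at 1.37, 0.687 and 1.4998 against 12.6, 14.3 and 9.54 CPM, from 6 counts in depleted replicate 2 upward (edgeR log2 fold change −3.10, SE 0.27, adjusted p = 2.12e-07). POLE, the catalytic subunit, was at 15.2, 15.9 and 15.3 against 23.1, 26.4 and 17.9 CPM, all depleted values lower, and did not pass (−0.31, SE 0.15, adjusted p = 0.0676). It passed without depleted replicate 2 (edgeR adjusted p = 0.0291), without replete replicate 3 (adjusted p = 0.0131), with library totals alone (adjusted p = 0.00435), with genes of mean CPM of at least 10 only (adjusted p = 0.0248) and with no count filter (adjusted p = 0.0482), within 0.00435 to 1 over its alternatives. The opposite order was seen in polymerase delta, where the catalytic subunit changed the most. POLD1 fell by 2.51 (SE 0.24, edgeR adjusted p = 5.95e-07) from 8.54 ± 0.660 to 1.27 ± 0.350 CPM (SD, n = 3), and the accessory subunits POLD3 and POLD2 fell by 0.82 and 0.53. The count ratio of POLE2 to POLE was 0.0904, 0.0432 and 0.0977 in depleted and 0.545, 0.541 and 0.533 in replete libraries. That of POLD1 to POLD2 was 0.0149, 0.00856 and 0.0179 against 0.0523, 0.0480 and 0.0599.

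The sliding clamp and its partner fell, the partner far more. PCNA, the ring that tethers polymerases to DNA, was at 57.4, 38.3 and 54.5 against 189, 169 and 169.5 CPM (edgeR log2 fold change −1.59, SE 0.13, adjusted p = 2.75e-07), lowest in depleted replicate 2. KIAA0101, or PCLAF, whose small product binds PCNA, was at 20.9, 19.4 and 18.6 against 750.4, 718 and 732 CPM. By edgeR its log2 fold change of −4.99 (SE 0.08, adjusted p = 8.31e-14) was the steepest of the 50 genes under every alternative in which it was computed. The count ratio of KIAA0101 to PCNA was 0.364, 0.506 and 0.341 in depleted and 3.97, 4.25 and 4.32 in replete libraries.

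RFC, the loader that opens the PCNA ring, was reduced unevenly. RFC4 and RFC1 fell by 1.41 and 0.70 on the log2 scale, and RFC3 and RFC2 by 0.33 and 0.31. RFC2 did not pass without depleted replicate 1 (edgeR adjusted p = 0.0643), without replete replicate 3 (adjusted p = 0.0717) or with DESeq2 (adjusted p = 0.0614), within 0.000423 to 1 over its alternatives. RFC5, another small subunit, was at 44.8, 53.1 and 47.2 against 62.1, 55.9 and 50.9 CPM, where 1 depleted value lay within the replete range (log2 fold change 0.01, edgeR adjusted p = 0.963).

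Genes that finish the lagging strand fell. LIG1, the ligase that seals Okazaki fragments, was at 12.4, 17.1 and 14.9 against 50.8, 57.0 and 57.3 CPM (edgeR log2 fold change −1.68, SE 0.13, adjusted p = 5.67e-08). FEN1, the nuclease that trims their flaps, was at 96.7, 83.6 and 94.0 against 224, 202 and 214 CPM (−0.996, SE 0.08, adjusted p = 1.04e-07). In both genes the groups were far apart.

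RPA, the trimer that coats single-stranded DNA, changed in its large subunit. RPA1 was at 31.8, 38.0 and 32.4 against 83.5, 77.4 and 80.4 CPM (edgeR log2 fold change −1.01, SE 0.10, adjusted p = 6.09e-07). RPA2 was at 40.6, 41.1 and 38.1 against 43.2, 40.3 and 40.7 CPM, overlapping (0.18, SE 0.09, adjusted p = 0.0966). RPA3 was at 49.1, 50.9 and 46.6 against 58.0, 59.99 and 60.8 CPM, all depleted values lower, and did not pass after TMM scaling (−0.06, adjusted p = 0.540), though it did with library totals alone (−0.29, edgeR adjusted p = 0.00765, within 0.00765 to 1 over its alternatives). The count ratio of RPA1 to RPA2 was 0.783, 0.925 and 0.852 in depleted and 1.93, 1.92 and 1.98 in replete libraries.

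The pair that copies DNA methylation onto the new strand fell in parallel. UHRF1, which recognises half-methylated sites, was at 8.15, 10.9 and 9.34 against 29.4, 28.7 and 27.7 CPM (edgeR log2 fold change −1.37, SE 0.14, adjusted p = 8.30e-07). DNMT1, the maintenance methyltransferase, was at 97.0, 91.9 and 88.3 against 299.6, 286 and 276 CPM (−1.41, SE 0.07, adjusted p = 1.49e-09). Their changes differed by less than their standard errors.

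Of the fork protection factors among the 50 genes, CLSPN fell the most and WDHD1 the least. CLSPN, the claspin adaptor of the replication checkpoint, was at 4.03, 4.01 and 2.65 against 71.2, 72.7 and 79.1 CPM (edgeR log2 fold change −4.14, SE 0.14, adjusted p = 3.96e-11), the second steepest of the 50. TIMELESS, a fork-stabilising protein that works with claspin, fell by 2.12 from 89.4 ± 0.645 to 17.6 ± 2.83 CPM (SD, n = 3). WDHD1, which links polymerase alpha to the helicase, was at 8.80, 8.93 and 10.0 against 27.6, 24.5 and 25.4 CPM (−1.26, SE 0.13, adjusted p = 1.10e-06). TIPIN, a fork protection factor outside the 50 genes, did not pass (0.12, edgeR adjusted p = 0.512). It was at 15.9, 12.7 and 18.2 against 20.3, 14.9 and 15.1 CPM, overlapping, and is named here after its values were seen. The count ratio of CLSPN to TIMELESS was 0.234, 0.194 and 0.177 in depleted and 0.796, 0.821 and 0.879 in replete libraries, lower in every depleted library than in any replete one.

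**Figure D3:**
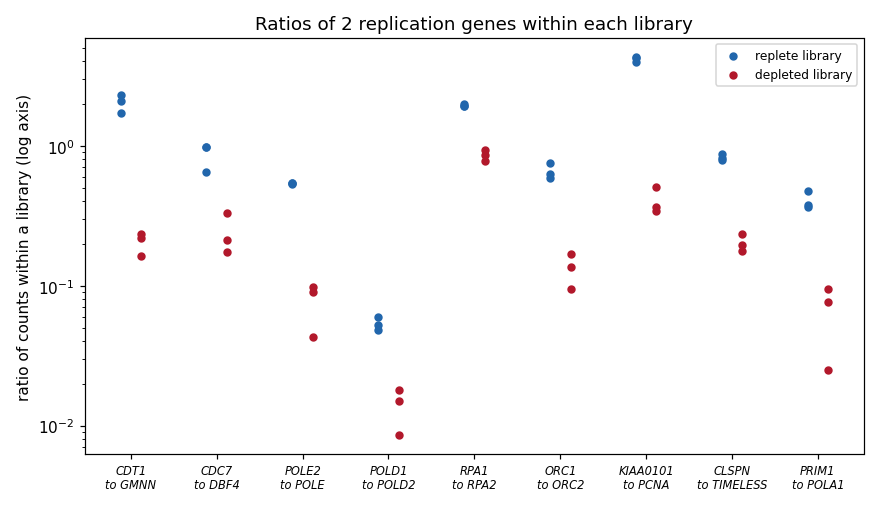
Ratio of the counts of 2 replication genes within each library (log axis), for 3 replete and 3 depleted libraries per pair. CDT1 to GMNN is the pair that was tested, and the 8 other pairs were chosen after their values were seen. In all 9 pairs the replete points lie above the depleted points.

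Replication factors outside the 50 genes were described from a list of 30, of which 29 were tested. Of these, 16 fell (55.2%), 8 rose (27.6%) and 5 did not pass, beside 39.4% lower and 39.1% higher of all genes tested (median log2 fold change −0.74, and −0.02 over all genes), and without depleted replicate 2 the counts were 17 and 8. The smallest p-values among those that fell were of DSCC1, RECQL4 and ASF1B. DSCC1, a subunit of the alternative CTF18 clamp loader, was at 0.825, 0.573 and 0.346 against 15.2, 16.9 and 16.0 CPM (edgeR log2 fold change −4.49, SE 0.25, adjusted p = 2.42e-09). The depleted values of DSCC1 stand for only 9, 5 and 3 counts. RECQL4, a helicase of origin firing, fell by 2.48, and ASF1B, a histone chaperone of dividing cells, by 1.58. Among those that rose, TOP1, the topoisomerase that relaxes DNA ahead of moving polymerases, was at 746, 689.5 and 758 against 206, 216 and 215 CPM (2.01, SE 0.07, adjusted p = 2.45e-11). CHTF8, also of the CTF18 loader, rose by 1.74, and RNASEH2C, a subunit of the RNase that removes RNA from DNA, by 1.60.

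Several of these factors share a complex with members of the 50, or with each other, and moved the other way (named after their values were seen). POLE3 and POLE4, the histone-fold subunits of polymerase epsilon, rose by 1.24 and 0.81 on the log2 scale (edgeR adjusted p = 2.23e-09 and 1.39e-05), while POLE2 fell. POLD4, the smallest subunit of polymerase delta, rose by 0.86 (adjusted p = 1.70e-05), while POLD1, POLD2 and POLD3 fell. CHTF18, the large subunit of the CTF18 loader, fell by 2.71 beside CHTF8, and RNASEH2A and RNASEH2B fell by 1.26 and 0.74 beside RNASEH2C. Of the ASF1 paralogs, ASF1A rose by 1.17 while ASF1B fell, and TOP2A, the topoisomerase of chromosome separation, fell by 0.93 while TOP1 rose. With library totals alone the list held 18 lower and 8 higher genes.

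**Figure D4:**
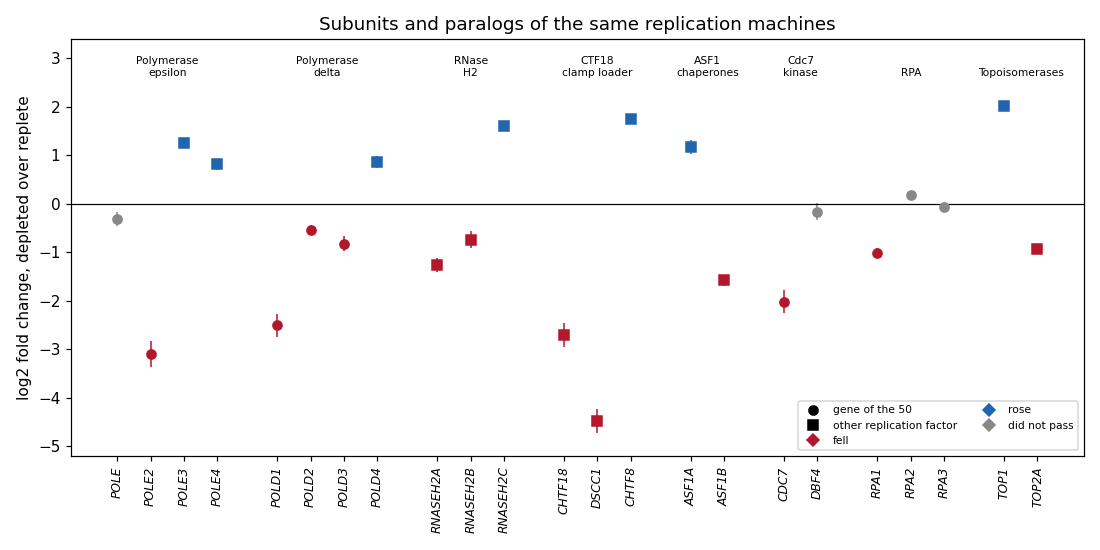
Log2 fold change (depleted over replete) with its standard error for subunits and paralogs of 8 replication machines. Circles are genes of the 50 and squares are other replication factors. Polymerase epsilon runs from POLE2 at −3.10 to POLE3 at 1.24, and the CTF18 loader from DSCC1 at −4.49 to CHTF8 at 1.74.

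Regulators of licensing and S-phase entry were read from a list of 12. Of these, 9 fell (75%) and 2 rose (16.7%), beside 39.4% and 39.1% of all genes tested, with a median log2 fold change of −0.91. The scaffold CUL4A did not pass (log2 fold change 0.19, edgeR adjusted p = 0.0557). Without depleted replicate 2, 8 fell and 3 rose. Only 7 fell with the DESeq2 test, with glmTreat against 1.5-fold, and without replete replicate 2 or replete replicate 3. DTL and CCNE2 fell by 0.30 and 0.58 (edgeR adjusted p = 0.0315 and 0.0208), but each was called in only 9 alternatives. CDK2, the kinase that drives S phase, was at 55.2, 55.2 and 57.2 against 175, 167 and 164 CPM (edgeR log2 fold change −1.36, SE 0.08, adjusted p = 2.73e-09). DDB1, part of the ubiquitin ligase that degrades CDT1 at PCNA, fell by 1.03, and the S-phase cyclin CCNA2 by 2.02. CUL4B, the paralog of CUL4A, rose by 0.86, and KAT7, a histone acetyltransferase that assists licensing, rose by 0.62 (edgeR adjusted p = 0.000755).

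Some replication genes start head to head with a neighbour on the opposite strand, and the neighbour was not part of the rule. In the RefSeq promoter table, 14 members had such a divergent neighbour within 1000 bases, and 12 of these neighbours were tested. Among the 12, 5 rose, 4 fell and 3 did not pass (VPS35 beside ORC6, TMEM258 beside FEN1 and SMYD4 beside RPA1). These shares, 41.7% higher and 33.3% lower, lie near the 39.1% and 39.4% of all genes tested, so the counts are no result about the neighbours. Of the 12, 9 stood beside a member that fell, among them the 5 that rose. PRPF38A, a splicing factor that starts 179 bases from ORC1, was at 179, 219.8 and 190.5 against 37.1, 32.3 and 38.0 CPM (edgeR log2 fold change 2.68, SE 0.10, adjusted p = 1.05e-10), the reverse of ORC1. TRIP4, a transcriptional coactivator 149 bases from KIAA0101, was at 28.1, 30.9 and 29.3 against 15.8, 16.4 and 18.5 CPM (1.03, SE 0.12, adjusted p = 2.99e-06). SOCS4, a cytokine signalling suppressor next to WDHD1, rose by 1.22, and TRMT6, a tRNA methyltransferase subunit next to MCM8, by 0.65, with CPM ranges that met. CDS2, a phospholipid synthesis enzyme next to PCNA, rose by 0.39 with overlapping CPM ranges, and did not pass with library totals alone (0.16, edgeR adjusted p = 0.184).

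The 4 neighbours that fell were AP4M1 (beside MCM7), RARS2 (ORC3), SLC25A40 (DBF4) and PXMP2 (POLE), named here after their values were seen. AP4M1, an adaptor subunit of vesicle traffic, fell by 1.07 where MCM7 fell by 1.67. SLC25A40, a mitochondrial carrier, fell by 2.74 beside DBF4, which did not pass. RARS2 and PXMP2 fell by 0.53 and 0.38, and neither passed without depleted replicate 1 (edgeR adjusted p = 0.0557 and 0.0845). Over their alternatives the adjusted p ran from 0.00128 to 0.507 for RARS2 and from 0.000816 to 0.954 for PXMP2. With library totals alone TMEM258 and SMYD4 fell as well (edgeR adjusted p = 0.00989 and 0.0314), which made 6 lower neighbours, and 2 were lower without depleted replicate 1. In the GENCODE 29 annotation (GRCh38), exons of 12 of the 50 members overlap another counted gene, on the opposite strand in 11. Whether reads were counted by strand is not given in the sources used here, and these genes may share reads. Among them are MCM7 with AP4M1, DBF4 with SLC25A40, RFC5 with WSB2, RPA3 with UMAD1, ORC4 with ACVR2A, and FEN1 with TMEM258 and FADS2. PRIM1, a gene of low counts, shares 33 exon bases on the same strand with NACA, whose mean was 498 CPM. Whether the overlaps lie at 3′ ends, from which the counted tags come, was not examined.

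**Figure D5:**
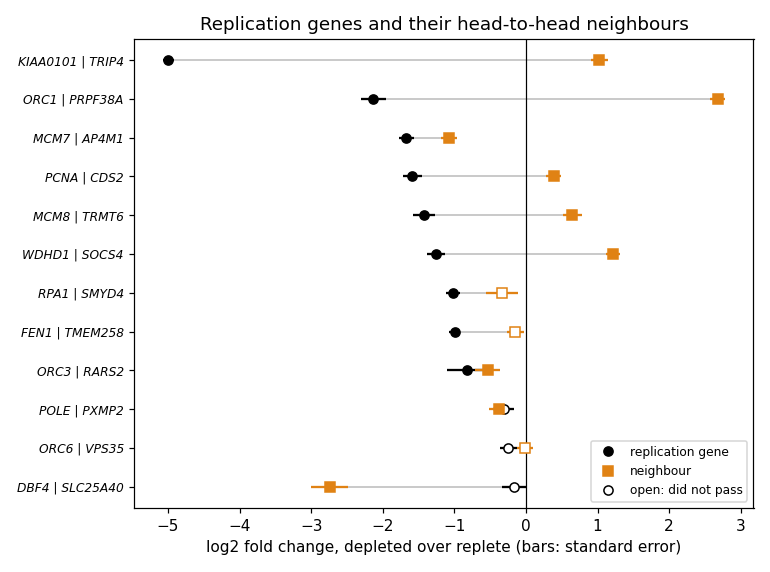
Log2 fold change (depleted over replete) with its standard error for 12 replication genes (circles) and the neighbour that starts head to head with each (squares), joined by a line. Open symbols did not pass an edgeR adjusted p of 0.05. In 5 pairs a circle left of 0 is joined to a filled square right of 0, most widely for KIAA0101 with TRIP4 and ORC1 with PRPF38A.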

How the data were processed

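RNA of 6 H460 libraries, 3 depleted and 3 replete, was measured by QuantSeq 3′ mRNA sequencing from 500 ng of total RNA. The authors deposited whole-number counts per gene symbol, per the file headers, and Bowtie2, edgeR and the hg19 build are named in the submitters' processing notes without version or role. The counting program, its strand setting and the annotation are not given in the sources used here. Entries sharing a symbol were summed (286 symbols, no member). Totals were 7550849 to 10914899 counts, which sets the precision of low genes.

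Genes were filtered with filterByExpr (minimum count 10, minimum total 15), scaled by TMM and tested, depleted against replete, by edgeR 4.0.16 (quasi-likelihood test, robust setting, with limma 3.58.1 and R 4.3.3), Benjamini-Hochberg threshold 0.05. The standard error is the log2 fold change divided by the root of F. The script was tested on simulated counts for this comparison (12543 genes). There it recovered 81.3% of genes changed by a log2 of 1 and 99% of those changed by 2. Its recovery in the measured counts, where 39.4% of tested genes were lower and 39.1% higher, was not tested. The CDT1 to GMNN ratio was tested by an exact permutation test in scipy 1.17.1. Alternatives were the test of DESeq2 1.42.0, limma-voom, and edgeR with its relative log expression (RLE) factors in place of TMM. The others, also with edgeR, were library totals alone, genes of mean CPM 10 or more, no count filter and glmTreat against 1.5-fold. The largest entry per symbol, a replicate block and leaving out each library completed them.

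The members and lists were chosen with earlier results of these data known. Values in every library were given for CDC6, CDT1, GMNN, MCM2 to MCM7, PCNA, KIAA0101, UHRF1 and DNMT1, for the members with the largest and smallest change of each role and for those that did not pass. Of the other replication factors and regulators, the 3 smallest p-values in each direction were named. Promoter letters came from the RefSeq table on GRCh38.p14 and exon overlaps from GENCODE 29, while counts rest on the authors' build, so no gene coordinates of the counts are given. A single one of the listed cell type markers is not reported here.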

Additional observations from a re-analysis of the deposited data

How the results depend on the processing

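Of the 40 members that fell, 37 also fell in each of 14 alternatives in which they were tested, and ORC3, POLA1 and RFC2 did not in at least 1. The remaining alternative, glmTreat against a 1.5-fold change, kept 31, beside 3455 of all 12739 genes lower. Members called higher ranged from 0 to 1 when 1 library was left out (ORC2 without depleted replicate 2, ORC4 without replete replicate 2). With glmTreat, 3324 of all genes were higher, 1 regulator was higher, and 3 head-to-head neighbours were higher and 2 lower. With a mean CPM of at least 10, 10 other replication factors and 2 neighbours were lower, fewer of them being tested. Lower neighbours ranged from 2 to 6 when 1 library was left out. The sign changed, with no call on either side, for ORC2 (−0.0235), ORC5 (−0.0654), POLA2 (−0.0398), RFC5 (−0.22) and RPA2 (−0.0519) with library totals alone. For RFC5 it also changed with no count filter (−0.0053) and under the mean CPM filter (−0.0941). With 1 library left out, RFC5 ran from −0.0696 (without replete replicate 3) to 0.0700 (without depleted replicate 1) and DBF4 from −0.319 (without depleted replicate 1) to 0.0065 (without depleted replicate 2). Apart from the scaling, the cause was not tested. Deviations of same-numbered libraries correlated at 0.119, 0.00611 and 0.0366. Depleted replicates 1 and 3 correlated best with the replete library of their own number, and depleted replicate 2 with replete replicate 3 (0.0458). With 3 libraries per group, correlations this small cannot settle whether the numbers pair the libraries. With the replicate block, 41 members fell and 0 rose, ORC6 being the addition (−0.25, edgeR adjusted p = 0.0392, 0.00302 to 1 over its alternatives), with 4999 genes lower and 4941 higher. The log2 ratio of CDT1 to GMNN differed by −3.32 with libraries paired by number. Pairing cannot change a mean difference between groups of equal size, so this value is no check of the ratio. Depth limits PRIM1, PRIM2, POLD1 and POLE2 most, with counts of 4 to 18 in the depleted libraries.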
